A study of Mus musculus with 8 samples.

Results

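The genes of fatty acid oxidation were followed in the retina of Lpcat1 knockout (KO) and wildtype (WT) mice. They comprised 38 genes, listed as 25 genes of mitochondrial oxidation, 8 genes of peroxisomal oxidation, 3 regulators of these genes and 2 enzymes of ketone body use. The genes were chosen by name and matched to the array through the RefSeq transcript given for each probe, among 20018 genes that could be named on the array in this way. All 38 genes had a probe, 51 probes in all, and each of these 51 probes was well above background on all 8 arrays, so no member was lost to the filter on dim probes. Where a gene had several probes, the brightest one over the 8 arrays gave its value.

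Fatty acids enter oxidation as coenzyme A (CoA) esters. In mitochondria, carnitine carries the acyl chain across the inner membrane, and each round of beta-oxidation then dehydrogenates, hydrates, dehydrogenates again and cleaves the chain to release acetyl-CoA for the citric acid cycle. Peroxisomes run a parallel set of reactions that shortens very long and branched chains and completes the synthesis of docosahexaenoic acid, a fatty acid in which the disc membranes of photoreceptors are rich. Photoreceptors burn fatty acids beside glucose, and the retinal pigment epithelium, which was not the tissue sampled here, oxidises fatty acids and passes ketone bodies to the neural retina.

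Total RNA of whole retina was measured on single-colour arrays in 4 WT and 4 KO samples, all from mice of 2 weeks labelled as strain C57BL/6. The KO mice lacked LPCAT1, a lysophospholipid acyltransferase that places palmitate in phosphatidylcholine, in the whole body and not in a chosen cell type. By the methods of the study, the line began on C57BL6/N and was crossed to C57BL6/J to remove the rd8 mutation of Crb1, and the mice used were not homozygous for it. The labels do not say that the samples came from separate animals, so p-values measure the spread between these samples.

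A level is log2 of a probe's processed signal minus the 75th percentile of its array, and a difference is the KO mean level minus the WT mean level. A probe or gene was called at a limma adjusted p under 0.05 (Benjamini-Hochberg over all probes tested) together with a fold change over 1.2. The 75th percentile signal was 638 to 738 over the arrays, and the probes well above background numbered 35031 to 36373 on the WT arrays and 33113 to 35619 on the KO arrays. Weights that limma estimated for the arrays ran from 0.63 (KO 1) to 2.22 (WT 2). Across the array, 992 of 33972 probes tested (2.92%) were called different between genotypes (470 higher and 522 lower in KO), and the split turned to 629 higher and 341 lower after cyclic loess normalization and to 563 higher and 374 lower with the 75th percentile taken over detected probes. The count was 395 with the replicate number as a block, and with an array left out it was 391 (without WT array 2) to 552 in 7 of the 8 cases and 1182 without KO array 1. Lpcat1 itself stood between -0.43 and -0.38 on the WT arrays and between -0.92 and -0.78 on the KO arrays (difference -0.46, SE 0.04, adjusted p = 0.0036), so 72.5% of the WT signal was still read. Whether the Lpcat1 probe lies in the deleted part was not given in the sources used here. The WT arrays occupied row 1 on the slide and the KO arrays row 2, so position by row cannot be told apart from genotype. The defining markers of the tissue were present, as all 12 rod, 9 cone and 9 Müller glia markers were well above background on every array. Of the rod markers, 3 were called lower in KO, Sag and Nr2e3 among them (1 of the 12 after quantile and 2 after cyclic loess normalization), and the summed linear signal of the 12 (in units of the array's 75th percentile) ranged over 2439 to 2531 for WT and 2044 to 2216 for KO. The summed signals of cone and Müller glia markers were higher in KO. For cones they ran from 208 to 214 in WT against 237 to 248 in KO (Arr3 and Opn1sw called). For Müller glia they ran from 295 to 315 in WT against 354 to 364 in KO (Apoe, Clu and Kcnj10 called). Apoe and Clu were the brightest of the 9 Müller glia markers (WT means 6.49 and 6.73). Sox9, Vim and Slc1a3 of that list had differences of only 0.05, 0.03 and -0.04. All 11 microglia and macrophage markers had higher values in KO (median difference 0.26), and Tyrobp, C1qa, C1qb, C1qc and Aif1 were called. Beside 21.2% of all genes, 9 of the 11 markers did not overlap between genotypes. Their summed signal, 30.5 to 38.3 in WT and 33.9 to 40.2 in KO, came mostly from Itgam (difference 0.02, SE 0.14), and without Itgam, left out after its value was seen, it was 12.4 to 13.4 in WT against 15.7 to 16.2 in KO. No gene was called among the markers of retinal pigment epithelium (8 tested), endothelium (5), skeletal muscle (5), lens (4) or blood (3), and Ckm, Mip, Crybb2, Best1 and Ppbp of these lists were too dim to test. Signal of retinal pigment epithelium was present, as 8 of its 9 markers were well above background on every array. Their summed signal was 16.9 to 21.6 in WT and 17.3 to 21.8 in KO. The 5 endothelial markers, none of them called, all had lower values in KO (median difference -0.17). Of these 5, 3 had an unadjusted p under 0.05, beside 15.3% of all genes lower at that limit. That count was 2 after a median shift and after quantile or cyclic loess normalization. The summed signal of the 5 was lower without overlap, at 18.5 to 19.3 in WT against 16.5 to 18.1 in KO. These shifts move with genotype across whole retina, where fewer cells of a type and less RNA per cell cannot be told apart, and their part in the values below was not tested.

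Promoters are shown for genes of mitochondrial oxidation that are set against each other below: Acadm and Acadvl, whose differences had opposite signs, and the stretch between Hadha and Hadhb. The sequences are the 250 bases before the annotated start, 5′ to 3′ on the strand of the gene, from RefSeq on GRCm38.p6. Capitals mark AGGTCA on either strand, the half-site read by nuclear receptors of the PPAR and RXR type, in Acadm and Acadvl, and GGGCGG, the core read by SP1, in Hadhb.
Acadm: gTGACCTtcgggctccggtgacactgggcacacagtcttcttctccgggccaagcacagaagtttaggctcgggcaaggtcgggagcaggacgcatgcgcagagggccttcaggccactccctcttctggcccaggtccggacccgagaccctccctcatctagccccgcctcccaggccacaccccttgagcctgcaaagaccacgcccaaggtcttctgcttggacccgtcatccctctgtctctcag
Acadvl: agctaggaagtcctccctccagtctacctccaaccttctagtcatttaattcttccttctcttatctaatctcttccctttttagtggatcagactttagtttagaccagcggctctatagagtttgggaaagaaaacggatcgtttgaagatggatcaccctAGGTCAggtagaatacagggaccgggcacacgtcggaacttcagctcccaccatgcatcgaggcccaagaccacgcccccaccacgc
Hadhb: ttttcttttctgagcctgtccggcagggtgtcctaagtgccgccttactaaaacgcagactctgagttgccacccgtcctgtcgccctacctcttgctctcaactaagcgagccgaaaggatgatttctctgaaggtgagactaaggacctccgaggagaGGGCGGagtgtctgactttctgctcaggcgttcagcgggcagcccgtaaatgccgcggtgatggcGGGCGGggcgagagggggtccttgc
The Acadm stretch is chr3:153944644-153944893 on the minus strand, with the half-site at -249 on the opposite strand, and the Acadvl stretch is chr11:70015429-70015678 on the minus strand, with the half-site at -87. The Hadhb stretch is chr5:30155003-30155252 on the plus strand and holds GGGCGG at -90 and -25. The starts of Hadha and Hadhb face away from each other on opposite strands with 272 bases between them, so this stretch is upstream of both. A promoter was listed for 30 of the 38 genes. AGGTCA on either strand was found in 6 of these 30 (20%), which were Acadm, Acadvl, Cpt1a, Cpt1c, Echs1 and Scp2, and in 14% of all 32851 listed promoters over the same 250 bases. The spaced pair AGGTCANAGGTCA, which contains that half-site, was found in 0 of the 30 and in 0.0335% of all promoters. GGGCGG on either strand was found in 20 of the 30 (66.7%) and in 32.7% of all promoters. Members were counted by gene and the background by listed promoter, with no filter on expression. These matches are a description of letters in this window.

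Of the 38 genes, 1 was called, the mitochondrial thiolase gene Acat1, which was lower in KO. Over all 14937 genes tested, 3.47% were called, 1.99% higher and 1.49% lower. That share was 1.48% with the replicate number as a block, where no member was called, and 1.59% (without WT array 2) to 3.97% (without KO array 1) with an array left out, where 1 member was called each time. The adjusted p alone was passed by 3 members (Acat1, Acadm and Decr1), against 6.62% of all genes. At an unadjusted p under 0.05 stood 10 members (26.3%), beside 26.2% of all genes. Of these 10, 9 were lower and 1 was higher in KO, where 15.3% of all genes were lower and 10.9% higher at that limit. This split depended on the scaling, with 6 lower and 3 higher after quantile and 7 lower and 3 higher after cyclic loess normalization. The genotypes did not overlap in 9 members (23.7%), beside 21.2% of all genes. By value alone, 21 members were lower and 17 higher in KO, beside 8638 lower and 6299 higher of all 14937 genes. The median difference of the members was -0.02, as it was over all genes, and the median size of the difference was 0.06 for members and 0.08 for all genes. In 30 of the 38 members (78.9%) the 95% confidence interval lay within a 1.2-fold change in either direction, which held for 63.6% of all genes.

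**Figure D1:**
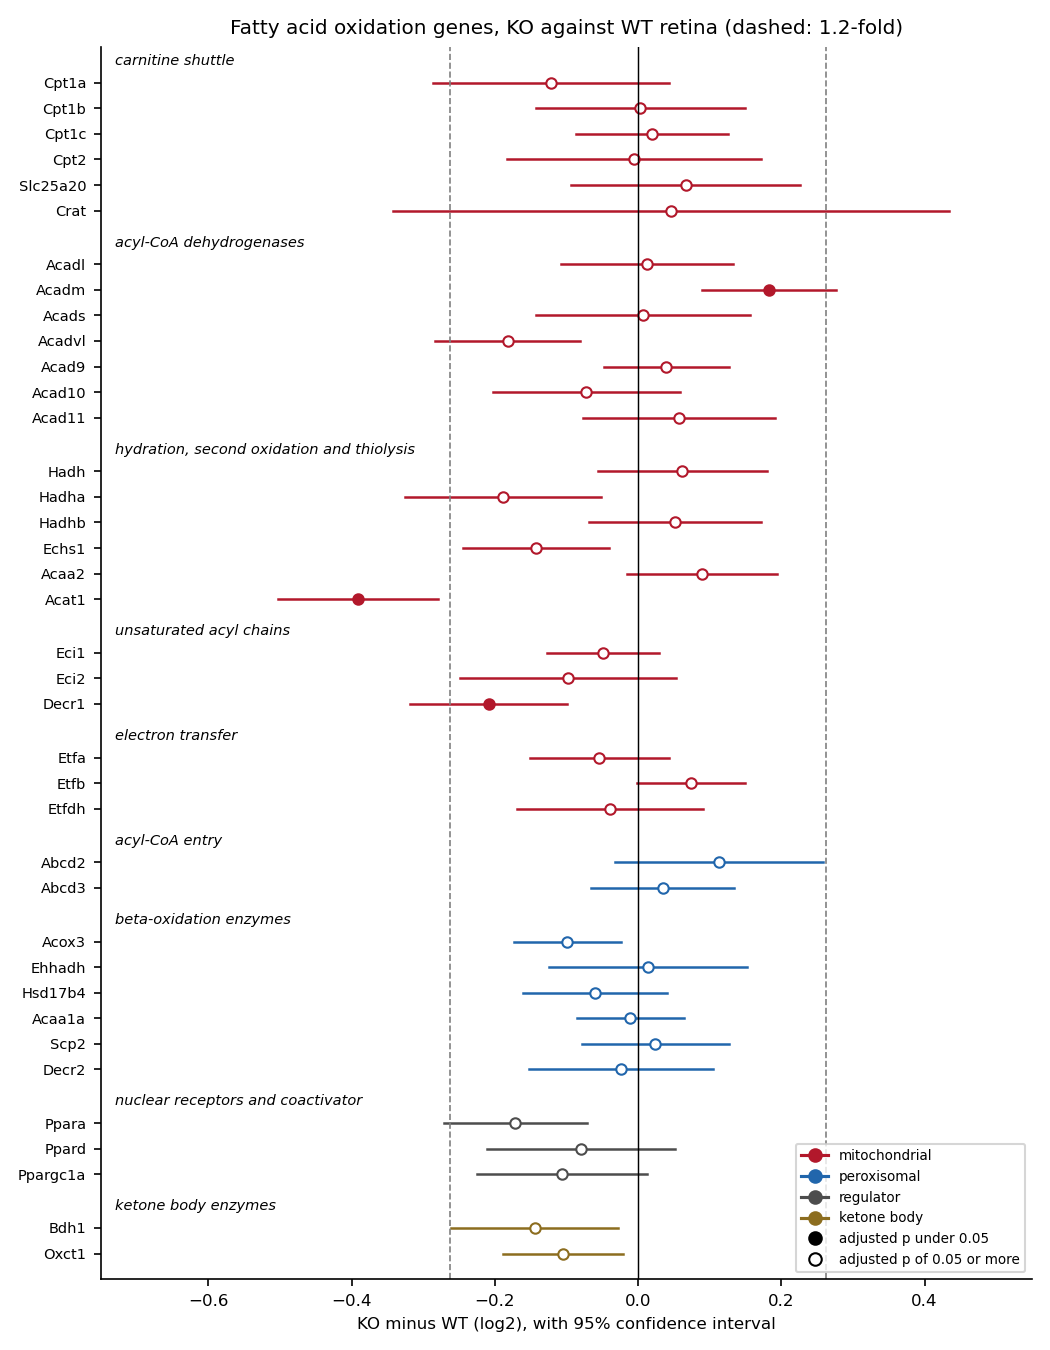
Difference between KO and WT (log2, x axis) for each of the 38 genes, grouped by step and coloured by compartment; bars are 95% confidence intervals, filled points passed an adjusted p under 0.05, and dashed lines mark a 1.2-fold change. Acat1 at -0.39 is the only point beyond a dashed line, and all 8 peroxisomal intervals lie between -0.17 and 0.26.

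The carnitine shuttle brings acyl chains into mitochondria. Of the 6 genes listed under it, 0 were called and 0 had an unadjusted p under 0.05 on the brightest probe. Cpt1a, the liver-type carnitine palmitoyltransferase that sets the rate of entry, was at 3.70, 3.77, 3.82 and 3.94 in the WT arrays and at 3.58, 3.61, 3.72 and 3.84 in the KO arrays (difference -0.12, SE 0.07, adjusted p = 0.35). The genotypes overlapped for Cpt1a, and a dimmer probe of the gene had a difference of -0.19 (unadjusted p = 0.035, adjusted p = 0.17) without overlap. The 95% interval of the brighter Cpt1a probe ran from -0.29 to 0.04, past a 1.2-fold fall. With an array left out, its difference was -0.17 to -0.079. Cpt1b, the muscle-type enzyme, read -1.42, -1.43, -1.35 and -1.25 in WT and -1.51, -1.33, -1.31 and -1.29 in KO (difference 0.00, SE 0.06, adjusted p = 0.98). Cpt1c, the brain-type member of the family, read 1.97, 2.03, 1.95 and 2.02 in WT and 1.92, 2.00, 2.08 and 2.06 in KO (difference 0.02, SE 0.05, adjusted p = 0.83). For both genes the genotypes overlapped. Cpt2, which returns the chain to CoA on the matrix side, read 1.64, 1.57, 1.53 and 1.43 in WT and 1.59, 1.69, 1.53 and 1.35 in KO (difference -0.01, SE 0.08, adjusted p = 0.97). The 95% interval of Cpt2 ran from -0.18 to 0.17, and its dimmer probe had a difference of -0.16 (adjusted p = 0.23). The carrier Slc25a20 differed by 0.07 (adjusted p = 0.60). Crat, carnitine acetyltransferase, differed by 0.05 with an SE of 0.17, the widest error among the members, since its 4 KO arrays ran from -4.41 to -3.56, so its 95% interval of -0.34 to 0.43 leaves changes beyond 1.2-fold undecided.

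Among the 7 acyl-CoA dehydrogenase genes, which open each round of oxidation, Acadm had higher values in KO and Acadvl lower ones. Acadm, the medium-chain enzyme, was at 3.23, 3.22, 3.16 and 3.27 in WT and at 3.37, 3.36, 3.44 and 3.44 in KO. All 4 KO arrays lay above all 4 WT arrays, and the difference of 0.18 (SE 0.04, adjusted p = 0.043) passed the adjusted p and not the 1.2-fold limit, with 114% of the WT signal in KO. Acadvl, the very long-chain enzyme of the inner membrane, was at 5.98, 6.02, 5.95 and 6.04 in WT and at 5.78, 5.74, 5.86 and 5.88 in KO. The Acadvl groups did not overlap either, yet the difference of -0.18 (SE 0.04, adjusted p = 0.053) missed the threshold. It was -0.10 (adjusted p = 0.27) after quantile normalization. The interval ran from 0.09 to 0.28 for Acadm and from -0.28 to -0.08 for Acadvl. The remaining dehydrogenases had differences of 0.01 for Acadl (long chain), 0.01 for Acads (short chain), 0.04 for Acad9, -0.07 for Acad10 and 0.06 for Acad11, each with an adjusted p of 0.48 or more. Thus 1 of the 7 passed the adjusted p and 0 were called.

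The lowest difference of all members was found at the end of the cycle. Acat1, the mitochondrial acetoacetyl-CoA thiolase, splits the last short intermediate into acetyl-CoA and also serves the breakdown of isoleucine and the use of ketone bodies. Its level was 2.67, 2.73, 2.73 and 2.85 in WT and 2.41, 2.33, 2.36 and 2.30 in KO. The highest KO array stayed below the lowest WT array, and KO retinas kept 76.3% of the WT signal (difference -0.39, SE 0.05, adjusted p = 0.0093). Acat1 had 1 probe on the array, so no other probe of the gene could be set beside it. It was not called with the replicate number as a block (adjusted p = 0.053). Echs1, the short-chain enoyl-CoA hydratase, was at 2.45, 2.48, 2.56 and 2.60 in WT and at 2.42, 2.36, 2.38 and 2.36 in KO, without overlap (difference -0.14, SE 0.04, adjusted p = 0.098). Hadha, the alpha subunit of the trifunctional protein that hydrates and dehydrogenates long chains, was at 0.94, 0.90, 0.99 and 0.96 in WT and at 0.64, 0.72, 0.77 and 0.91 in KO (difference -0.19, SE 0.06, adjusted p = 0.10). A KO array of Hadha reached into the WT range. Hadhb, the beta subunit of the same protein and the neighbour of Hadha across the shared upstream stretch shown above, had a difference of 0.05 (SE 0.05, adjusted p = 0.60), and whether the subunits differed from each other in their response was not tested. Hadh, the short-chain dehydrogenase, differed by 0.06 (adjusted p = 0.51) and Acaa2, the medium-chain thiolase, by 0.09 (adjusted p = 0.28).

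Double bonds in the chain need auxiliary enzymes, and all 3 of these genes had lower values in KO, as had 8638 of 14937 genes tested. Decr1, the mitochondrial dienoyl-CoA reductase, was at 2.02, 2.04, 1.98 and 2.09 in WT and at 1.90, 1.81, 1.73 and 1.85 in KO. The groups did not overlap, and the difference of -0.21 (SE 0.05, adjusted p = 0.045) passed the adjusted p and not the 1.2-fold limit. A much dimmer probe of Decr1 went the other way, with 0.12 (adjusted p = 0.40), so the mean of both probes gave -0.04 (adjusted p = 0.68). The isomerase genes Eci1 and Eci2, of which Eci2 also acts in peroxisomes, had differences of -0.05 (adjusted p = 0.43) and -0.10 (adjusted p = 0.41), the latter -0.043 without WT array 4.

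Electrons from the dehydrogenases pass through the flavoprotein encoded by Etfa and Etfb to the quinone oxidoreductase encoded by Etfdh, and 0 of these 3 genes were called. Etfdh was at 1.259, 1.191, 1.254 and 1.208 in WT and at 1.283, 1.231, 1.202 and 1.040 in KO (difference -0.04, SE 0.06, adjusted p = 0.71). Its KO arrays spread around the WT arrays. Etfb had a small difference of 0.07 (SE 0.03, adjusted p = 0.22) with no overlap, from 3.62 to 3.67 in WT and from 3.70 to 3.74 in KO. Etfa differed by -0.05 (adjusted p = 0.48), with a dimmer probe at 0.07.

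**Figure D2:**
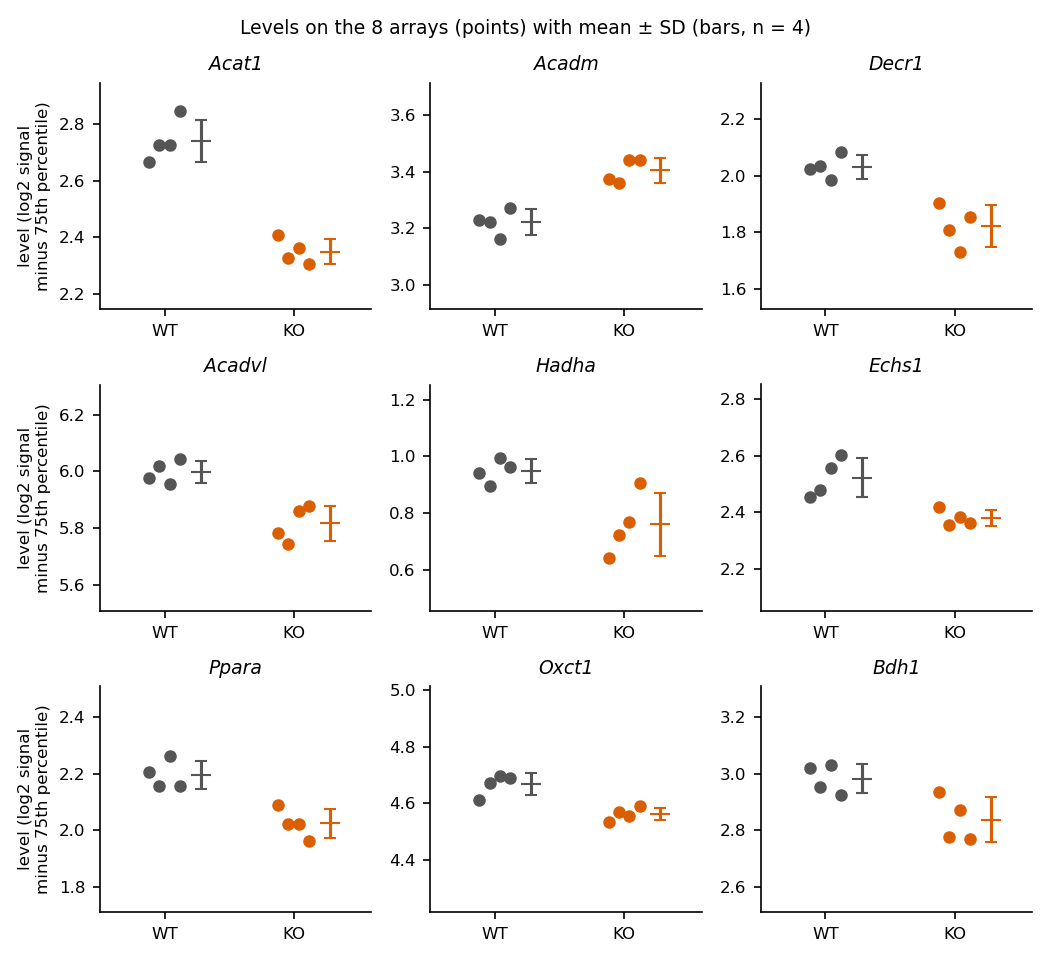
Level (log2 signal minus the 75th percentile, y axis, each panel spanning the same range of 0.8) of 9 genes on the 4 WT and 4 KO arrays; each point is an array, and the bars give the mean ± SD. Acat1 is set apart by the widest gap between the genotypes, with WT from 2.67 to 2.85 and KO from 2.30 to 2.41, while Hadha and Bdh1 overlap.

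Over the mitochondrial genes as a group, 1 of 25 was called (3.47% of all genes), 6 (24%) had an unadjusted p under 0.05 (26.2% of all genes), and the median difference was 0.00. Of these 6, 5 were lower and 1 was higher in KO, a split that depended on the scaling, with 4 lower and 3 higher after quantile and 5 lower and 3 higher after cyclic loess normalization. As many as 13 were higher and 12 lower in value. Averaged over the 25 genes, the deviation from each gene's mean was -0.01, 0.02, 0.01 and 0.05 on the WT arrays and -0.06, -0.01, 0.01 and 0.00 on the KO arrays.

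Of the 8 peroxisomal genes, none was called, none passed the adjusted p, and 1 (12.5%) had an unadjusted p under 0.05, beside 26.2% of all genes. The differences ran from -0.10 to 0.11 with a median of 0.00, and all 8 intervals lay within a 1.2-fold change. Abcd3, the transporter of the peroxisomal membrane for long and branched acyl-CoA, was at 2.96, 3.06, 3.07 and 3.06 in WT and at 3.06, 3.13, 3.09 and 3.02 in KO (difference 0.03, SE 0.04, adjusted p = 0.67). Abcd2, which carries very long chains, had the highest value of the 8, with a difference of 0.11 (SE 0.06, adjusted p = 0.33), which was 0.058 without KO array 2. Both transporters thus overlapped between the genotypes.

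Inside the peroxisome, Acox3, an oxidase of branched chains, was the gene with the unadjusted p under 0.05. It was at 1.36, 1.40, 1.38 and 1.42 in WT and at 1.30, 1.29, 1.29 and 1.28 in KO (difference -0.10, SE 0.03, adjusted p = 0.12). The groups did not overlap, although 93.4% of the WT signal was left in KO, and a dimmer Acox3 probe differed by -0.03 (adjusted p = 0.89). Ehhadh, the bifunctional enzyme of straight chains, was at -1.63, -1.63, -1.57 and -1.58 in WT and at -1.42, -1.67, -1.60 and -1.67 in KO (difference 0.01, SE 0.06, adjusted p = 0.91). Hsd17b4, the other bifunctional enzyme, which also acts in the last steps of docosahexaenoic acid synthesis, was at 3.08, 3.09, 3.14 and 3.16 in WT and at 2.97, 3.09, 3.11 and 3.07 in KO (difference -0.06, SE 0.04, adjusted p = 0.45). Neither bifunctional enzyme gave groups that stood apart. The thiolase genes Acaa1a and Scp2 had differences of -0.01 and 0.02, and the reductase Decr2 of -0.02, each with an adjusted p of 0.78 or more.

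**Figure D3:**
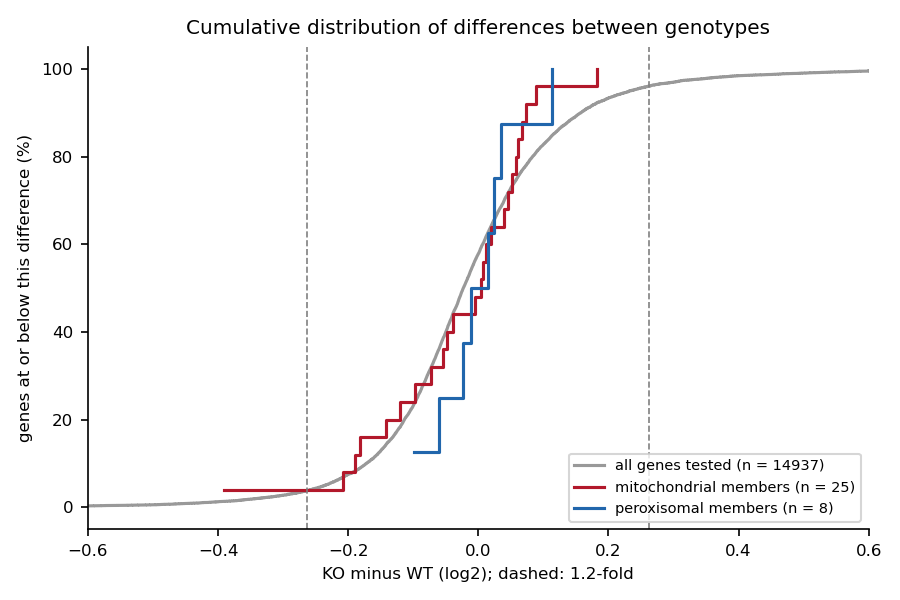
Cumulative share of genes (%, y axis) at or below each difference between KO and WT (log2, x axis) for all 14937 genes tested, the 25 mitochondrial and the 8 peroxisomal genes; dashed lines mark a 1.2-fold change. The mitochondrial curve runs from -0.39 (Acat1) to 0.18 and the peroxisomal curve from -0.10 to 0.11. Of the 25 mitochondrial genes 13 lie above 0, beside 6299 of all 14937 genes, and the curves were not tested against each other.

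All 3 regulators had lower values in KO, and 0 of the 3 were called. Of all 14937 genes tested, 8638 had lower values. Ppara encodes the fatty acid-sensing nuclear receptor that drives transcription of oxidation genes. It was at 2.20, 2.16, 2.26 and 2.16 in WT and at 2.09, 2.02, 2.02 and 1.96 in KO. The groups did not overlap, with a difference of -0.17 (SE 0.04, adjusted p = 0.059). The other probes of Ppara had differences of -0.11 (adjusted p = 0.15) and -0.12 (adjusted p = 0.13), also without overlap, so all 3 probes had lower values without passing the threshold. Ppargc1a, the coactivator of mitochondrial biogenesis, was at 2.29, 2.37, 2.23 and 2.24 in WT and at 2.26, 2.21, 2.10 and 2.13 in KO (difference -0.11, SE 0.05, adjusted p = 0.26). Ppard, a related receptor, had a difference of -0.08 (adjusted p = 0.44). The genotypes overlapped for both of these.

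Ketone bodies reach acetyl-CoA through Bdh1, Oxct1 and then Acat1, and all 3 had lower values in KO, Acat1 being the gene called. Lower values were also found for 8638 of the 14937 genes tested. Oxct1, the transferase that activates acetoacetate, was at 4.61, 4.67, 4.70 and 4.69 in WT and at 4.54, 4.57, 4.56 and 4.59 in KO (difference -0.10, SE 0.04, adjusted p = 0.13). Bdh1, the hydroxybutyrate dehydrogenase, was at 3.02, 2.95, 3.03 and 2.92 in WT and at 2.93, 2.78, 2.87 and 2.77 in KO (difference -0.14, SE 0.05, adjusted p = 0.13). Oxct1 did not overlap between genotypes, whereas for Bdh1 the highest KO array exceeded the lowest WT array. The other probes of Bdh1 had differences of -0.09 and -0.12. The unadjusted p of Oxct1 and Bdh1 was under 0.05 for both genes here and for 0 of them after quantile or cyclic loess normalization, and the difference of Oxct1 ranged from -0.16 to -0.05 over the alternatives.

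The genes around the pathway were taken from lists of its neighbours. In the formation of acyl-CoA and the supply of carnitine, 15 of 17 genes were tested and 0 were called, from -0.13 for Acsl1 (a long-chain acyl-CoA synthetase, adjusted p = 0.088) to 0.14 for Acot13 (a thioesterase, adjusted p = 0.090). In other mitochondrial oxidation of acyl-CoA, mostly of branched amino acids and propionate, 0 of 15 tested genes were called, although Nudt8, a hydrolase of CoA, passed the adjusted p with -0.23 (adjusted p = 0.019). The highest value of that list was 0.40 for Acss1, an acetyl-CoA synthetase (adjusted p = 0.31). In other peroxisomal oxidation, 0 of 18 tested genes were called, and Nudt7, the peroxisomal CoA hydrolase, passed the adjusted p with 0.23 (adjusted p = 0.023), while the lowest was -0.09 for Acot8 (adjusted p = 0.17).

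The list of peroxins, proteins that build and divide peroxisomes, held 17 genes by name, and 0 were called. Pex5l among them encodes a subunit of neuronal HCN channels and is no peroxin by function (difference -0.18, adjusted p = 0.054), so it was left out after its value was seen. Of the remaining 16, 7 had an unadjusted p under 0.05, all lower in KO, beside 15.3% of all genes in that direction, and the median was -0.09. With Pex5l the count was 8 and the median -0.10. The count of 7 depended on the scaling, as it was 2 after a median shift and 3 after quantile or cyclic loess normalization, with medians of -0.07, -0.07 and -0.06. Pex16, which places proteins in the peroxisomal membrane, was lowest at -0.18 (adjusted p = 0.059), Pex2, a ubiquitin ligase of the import machinery, passed the adjusted p at -0.17 (adjusted p = 0.038), and the import receptor Pex5 was highest at 0.04 (adjusted p = 0.60).

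Of 16 genes known as targets of PPAR, 10 were tested, since Cd36, Cidec, Cyp4a14, Pdk4, Plin5 and Vnn1 were too dim, and 1 was called, beside 3.47% of all genes. This was Fabp7, a fatty acid-binding protein of glia, which was lower in KO (difference -0.36, SE 0.06, adjusted p = 0.023). Its difference stayed beyond a 1.2-fold change after a median shift, at -0.34 (adjusted p = 0.070), and with an array left out, at -0.41 to -0.33, where the adjusted p was under 0.05 only without KO array 1 (0.040) or KO array 3 (0.029). The median of the 10 was -0.01. Among the 16 partners of PPAR and PGC-1, 0 were called, from -0.27 for Rxra (adjusted p = 0.15) to 0.11 for Rxrg (adjusted p = 0.17). The 6 further ketone body genes that were tested held 0 called genes, with Bdh2 at 0.24 (adjusted p = 0.040) and the monocarboxylate transporter Slc16a7 at -0.24 (adjusted p = 0.41). The citric acid cycle, which takes up the acetyl-CoA, held 0 called genes of 18, from -0.14 for Sdhd (adjusted p = 0.17) to 0.07 for Ogdh (adjusted p = 0.29). Its median was -0.05 with 4 genes (22.2%) lower at an unadjusted p under 0.05, beside 15.3% of all genes, and these values depended on the scaling, as no gene was lower at that limit after quantile or cyclic loess normalization, with medians of -0.0071 and -0.0036.

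**Figure D4:**
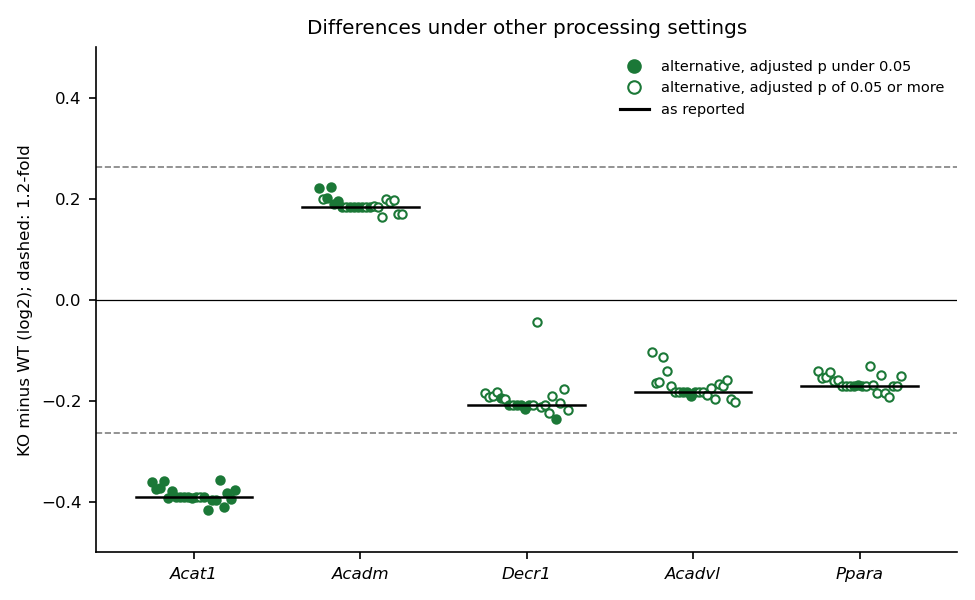
Difference between KO and WT (log2, y axis) of the 5 members with the lowest p, recomputed under 22 other settings of scaling, background correction, filtering, model and left-out arrays (points, filled where the adjusted p was under 0.05), with the value given in the text as a line and a 1.2-fold change dashed. Acat1 stays beyond the dashed line in each setting, from -0.42 to -0.36, and no point of the other genes reaches it.

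The sign of these 5 differences was the same in all 22 settings. The adjusted p of Acat1 was under 0.05 in 21 of them and 0.053 with the replicate number as a block. For Acadm it was under 0.05 in 11 settings and in 0 of the 8 that left out an array, where it lay between 0.056 and 0.11 and the difference between 0.16 and 0.20. For Decr1 it was under 0.05 in 7, for Acadvl in 4 and for Ppara in 3 of the 22. Among the 8 settings that left out an array, this held in 1 for Decr1 and in 0 for Acadvl and Ppara.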

How the data were processed

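The authors hybridised Cy3-labelled cRNA to Agilent SurePrint G3 mouse arrays and quantified them with Agilent software (Feature Extraction 10.7.1.1, in the submitters' processing notes). Each deposited scan holds intensity, background-subtracted and not scaled between arrays. The authors' table, per the file headers and methods on a log2 scale after a 75th percentile shift, served as an alternative. Spots flagged as outliers (86 to 147 an array) and 3671 control spots were left out, spots of a probe were averaged, and 33972 of 55681 probes well above background on all 4 arrays of a genotype were tested. RefSeq accessions named 26413 probes (47.4%). The array was designed on mm9, so no probe coordinates are given. Genotypes were compared with limma 3.58.1 in R 4.3.3 (lmFit and eBayes, no covariates), after a test on simulated data. In that test, 50 of 33950 probes were given a true difference. Of these 50, 0 passed the adjusted p at a size of 0.2, 15 at 0.3, 14 at 0.4 and 38 at 0.8. At each size, 6 unchanged probes were called. A gene that was not called may thus still differ. The number of arrays limits the precision.

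Members and lists were chosen with earlier results of these data known. Members named in full were those called, those with the lowest p until 10 were reached, and fixed genes of each step; of other lists, called genes or the extremes (those passing the adjusted p were named after their values were seen). Alternatives changed normalization, background correction, filter, model, threshold, probe choice, pairing and arrays used.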

Additional observations from a re-analysis of the deposited data

Results flagged for a closer look

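Among 76 groups of 4 arrays (each of the 38 genes in each genotype), 3 had an array far from the others by Dixon's ratio of gap to range (95% critical value), and chance gives about 1 in 20. Eci2 read 2.90 on WT array 4 against 2.67 to 2.71 on the other WT arrays. Abcd3 read 2.96 on WT array 1 against 3.06 to 3.07 on the others. Acaa1a read 5.83 on KO array 4 against 5.79 to 5.80 on the others. The flags fell in different genes and in 3 different arrays, and none of these genes was called.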

How the results depend on the processing

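Acat1 was the gene called under each scaling, background correction, filter, tool and left-out array. No peroxisomal, regulator or ketone body member was called under any alternative. The count of probes called was 992 and became 660 after a median shift and 246 with no filter on dim probes. It was 1869 with no minimum fold, 138 with a fold over 1.5 and 3136 with an adjusted p under 0.5. With an array left out, the count was 391 (without WT array 2) to 1182 (without KO array 1). An unpaired t-test gave 701 after Benjamini-Hochberg adjustment. The WT and KO samples share replicate numbers that the labels do not explain. Same-numbered samples correlated in their deviations at 0.04 to 0.25 and others at -0.20 to 0.06, and 7 of the 8 correlated best with their own number, which did not meet the criterion for pairing (every pair over 0.1). With the replicate number as a block, 395 probes and 0 mitochondrial members were called, and Acat1 had -0.39 (adjusted p = 0.053). With no minimum fold, 3 mitochondrial members were called, and with a fold over 1.5, 0 were, nor was Lpcat1 at -0.46. The mitochondrial median became 0.027 after cyclic loess and -0.036 (without KO array 3) to 0.010 (without KO array 4) with an array left out, and the peroxisomal median became 0.049 after cyclic loess and 0.045 after quantile normalization. The count of peroxisomal genes with an unadjusted p under 0.05 fell to 0 after a median shift, with normexp and with the mean of a gene's probes. Fabp7 was not called after a median shift (adjusted p = 0.070), with no filter on dim probes (0.080), with the replicate block (0.072) or without any of 6 arrays (0.054 to 0.068). The causes were not tested.

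Members near 0 changed sign without being called. Acaa1a became 0.071 (quantile), 0.0060 (median shift), 0.0082 (percentile of detected probes), 0.057 (cyclic loess) and 0.0015 (authors' table). In the same settings Cpt2 became 0.018, 0.011, 0.014, 0.018 and 0.0067, and it was 0.029 with normexp and 0.0020 with array weights. Acads became -0.034 with array weights and -0.0019 with normexp, Hadhb -0.029 with normexp, Decr2 0.0030 with array weights and Etfa 0.0066 with the mean of its probes. With an array left out, the ranges that crossed 0 were -0.021 to 0.040 for Acadl, -0.036 to 0.048 for Acads, -0.021 to 0.053 for Cpt1b, -0.0021 to 0.051 for Cpt1c, -0.054 to 0.056 for Cpt2, -0.061 to 0.22 for Crat, -0.057 to 0.017 for Decr2, -0.041 to 0.041 for Ehhadh and -0.070 to 0.010 for Etfdh. A further 15 members kept their sign and moved by over 1.5 times, and 14 stayed within 1.5 times. Among the 15 were Abcd2 (0.058 to 0.15), Eci2 (-0.13 to -0.043), Acad10 (-0.11 to -0.033) and Hsd17b4 (-0.076 to -0.030). Normexp used median signals.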
